A study of Mus musculus with 4 samples.

Results

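The D-type cyclins Ccnd1, Ccnd2 and Ccnd3, the cyclin-dependent kinase (CDK) inhibitors Cdkn1a, Cdkn2c and Cdkn1b, and the retinoblastoma gene Rb1 were followed through 5 stages of mouse molar development. The genes were taken by symbol, and every probe that carried one of the symbols in the 4 scanner files was kept. This gave 7 genes and 13 probes of the 41174 probes on the array. Of the 13 probes, 12 were measured, meaning above background in the stage's channel on at least 1 array or in the E14 channel on at least 2. All 7 genes had at least 1 measured probe, among 17421 measured genes.

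RNA of pooled whole first molar germs from the lower jaw of C57BL/6 embryos was compared on two-colour oligonucleotide arrays at embryonic day (E) 11, 12, 16 and 18, each against E14. Each stage was 1 pool, labelled with Cy5, and the E14 pool was labelled with Cy3 on all 4 arrays. The labels name no transgene, treatment or sex, and do not give the number of germs in a pool or whether the 4 E14 labellings came from 1 extract. The dyes were not swapped, the arrays of E11 and E12 shared a slide as did those of E16 and E18, and every group held both dental epithelium and mesenchyme with the vessels and blood of the germ.

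D cyclins bind CDK4 and CDK6 in the G1 phase of the cell cycle and carry mitogen signals into it. The kinases phosphorylate the retinoblastoma protein, which then releases E2F factors, and these switch on the genes of DNA replication. Inhibitors of the Cip/Kip family (Cdkn1a, Cdkn1b) bind cyclin-CDK complexes, and those of the INK4 family (Cdkn2c) bind CDK4 and CDK6 themselves. In the tooth the enamel knot, a signalling centre of the dental epithelium that forms at the cap stage around E14, is known for non-dividing cells that express Cdkn1a, while the cells around it go on dividing.

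Values are log2 ratios of a stage over E14, so that 1 stands for a 2-fold higher level in the stage and E14 stands at 0. With 1 pool per stage no ratio has a replicate. Its only measured spread is technical: the SD of the E14 channel over the 4 hybridisations, which had a median of 0.05 log2 units over all measured genes, with a 95th percentile of 0.12. A gap between neighbouring stages is set below against the range of the gene's own E14 values. That range covers the E14 channel alone, whereas a gap also holds the noise of the Cy5 channel. A gap larger than the range is therefore no test of a difference. The median of all measured genes lay between -0.02 and 0.00 on the 4 arrays.

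**Figure D1:**
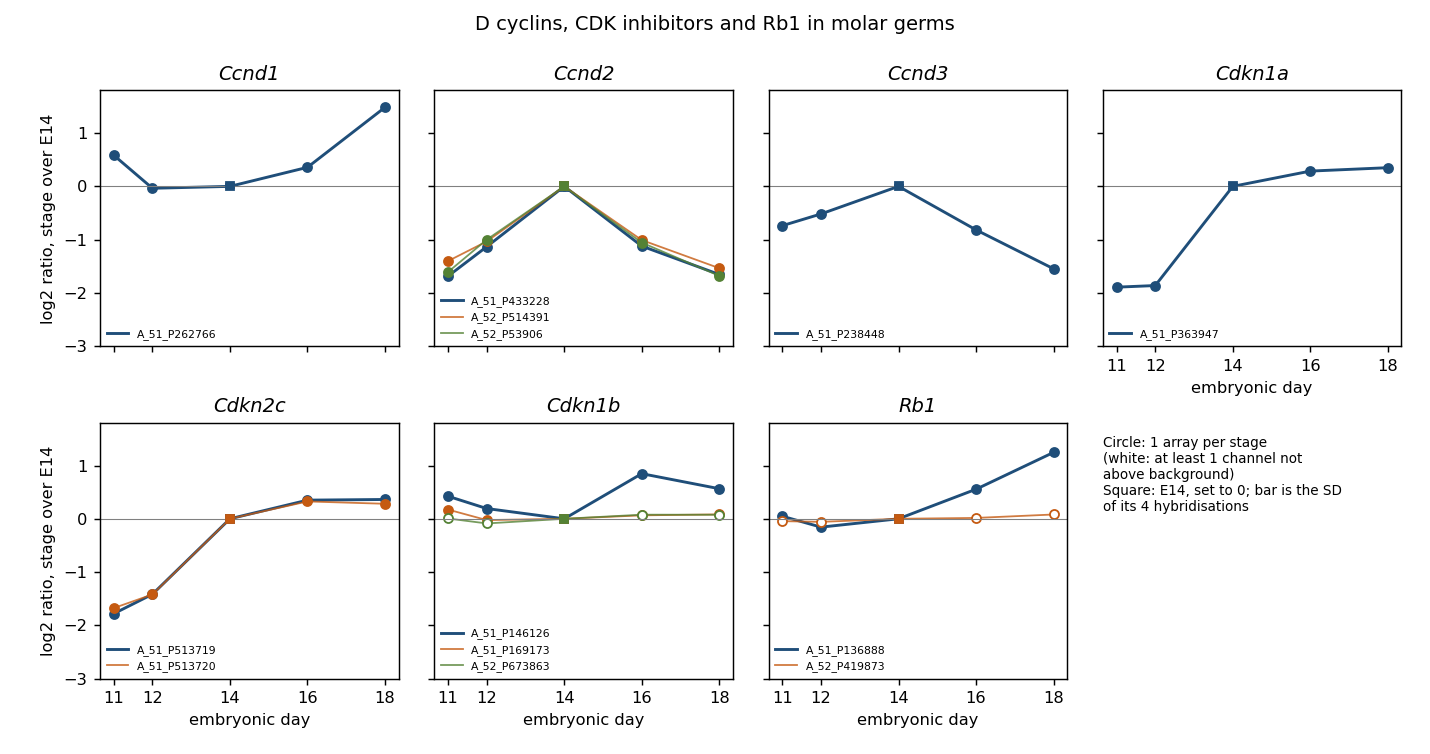
Log2 ratio of each stage over E14 (vertical axis) against embryonic day (horizontal axis) for every probe of the 7 genes. Circles are 1 array each, the square at E14 is the reference set to 0 with the SD of its 4 hybridisations, and the thick line is the probe that stands for the gene. Cdkn1a and Cdkn2c are low at E11 and E12 and slightly above E14 afterwards, the 3 Ccnd2 probes peak at E14, and Ccnd1 and Rb1 are highest at E18.

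The 3 D cyclins did not follow 1 course. Ccnd1 was highest at E18, while Ccnd2 and Ccnd3 were highest at E14, and no D cyclin passed the test for a linear trend in embryonic day. Ccnd1 encodes cyclin D1, and its transcription is known to answer to growth factor and Wnt signals. The probe A_51_P262766 (build mm7, chromosome 7_random, 7568179 to 7568238, plus strand) gave a log2 ratio of 0.59 at E11 and -0.04 at E12, then 0.36 at E16 and 1.48 at E18, with an E14 SD of 0.04 (n = 4 hybridisations). In level order the stages ran E12, E14, E16, E11, E18, and the gap between E12 and E14 was not larger than the range of the E14 values (0.09). All other neighbours differed by more than that range. As normalized here Ccnd1 was lowest at E12 and E14 and highest at E18, when its level was 2.80-fold that of E14. With plain median centring it gave 1.62, 1.13, 1.30 and 2.07 in stage order, and E14 alone was lowest.

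This probe is printed as 10 spots on each array, which gives a second technical spread. The Ccnd1 spots ranged from 0.53 to 0.64 at E11, from -0.09 to 0.05 at E12, from 0.31 to 0.42 at E16 and from 1.44 to 1.63 at E18. The spots of E18 did not overlap those of any other stage, and those of E12 were the lowest. Between arrays of 1 slide, Ccnd1 was 2.18-fold higher at E18 than at E16, the only one of the 7 genes past 2-fold upward in that pair, which 0.488% of all measured genes passed. With plain median centring of each array that difference was 0.77, short of 2-fold. Between E11 and E12 it dropped by 0.62, and no member changed by 2-fold between these stages. The slope over the 4 arrays was 0.13 ± 0.06 per day (SE), with an adjusted p of 0.231 in limma after Benjamini-Hochberg adjustment. Without the E16 array the adjusted p of Ccnd1 was 0.0096 in the same limma fit, and without E18 the slope was -0.0046.

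Ccnd2, which encodes cyclin D2, stood below E14 at every other stage in all 3 of its probes. The brightest probe, A_51_P433228 (mm7, chromosome 6, 127163669 to 127163728, minus strand), gave -1.69 at E11 and -1.13 at E12, then -1.12 at E16 and -1.65 at E18, with an E14 SD of 0.09 (n = 4 hybridisations). The second, A_52_P514391 (127154070 to 127154129), gave -1.40, -1.03, -1.01 and -1.54. The third, A_52_P53906 (127173178 to 127173237), gave -1.61, -1.0, -1.06 and -1.68. These probes lie at separate places of the gene and differed from each other by at most 0.28 on any array, and all 3 peaked at E14. E14 exceeded E11 3.22-fold, E12 2.19-fold, E16 2.17-fold and E18 3.15-fold.

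In level order the stages of Ccnd2 ran E11, E18, E12, E16, E14. Neither E11 and E18 nor E12 and E16 differed by more than the range of the E14 values (0.20), and the steps between these pairs and up to E14 were larger. Ccnd2 was lower than E14 by 2-fold or more on all 4 arrays, which held for 61 of 17414 genes (0.35%). The slope was -0.0041 ± 0.046 per day (limma, Benjamini-Hochberg adjusted p 0.963). A level that is low in Cy5 on every array may belong to the E14 pool or to the dye, and without a dye swap these cannot be told apart for the ratios to E14. That limit does not touch the differences between stages, in which the E14 channel cancels: E12 was 0.55 above E11, and E18 was 0.53 below E16.

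The position of Ccnd2 against E14 also depended on the correction for signal strength. Its spots were brighter than those of 98.8% of the measured genes, and at that brightness the intensity-dependent (loess) correction moved its log2 ratio by -1.52 at E11 and -1.55 at E12, then -1.28 at E16 and -0.92 at E18 against a plain centring of each array on its median. With plain centring Ccnd2 gave -0.16 at E11 and 0.42 at E12, then 0.16 at E16 and -0.74 at E18, while the median of all genes then stood at 0.40, 0.64, 0.57 and 0.17. Relative to that median Ccnd2 was lower on each array, by 0.56, 0.22, 0.42 and 0.91 in stage order. In the scanner software's own ratios, which carry a separate dye normalization, it stood at -1.72, -1.21, -1.27 and -1.79.

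Ccnd3, which encodes cyclin D3, was also highest at E14 but lost most of its level late. Its probe A_51_P238448 (mm7, chromosome 17, 45735858 to 45735917, plus strand, 1 spot) gave -0.74 at E11 and -0.52 at E12, then -0.82 at E16 and -1.55 at E18, with an E14 SD of 0.02 (n = 4 hybridisations). All neighbours in its level order, E18, E16, E11, E12, E14, differed by more than the range of the E14 values (0.04). E14 exceeded E18 2.92-fold and E12 1.43-fold, and E18 was 2.04-fold below E12. No repeat spots or second probe exist for Ccnd3, so its array noise is known only from the E14 channel. The slope was -0.11 ± 0.04 per day (limma, Benjamini-Hochberg adjusted p 0.134), and without the E16 array the adjusted p was 0.0342. With plain median centring the values were 0.47, 0.81, 0.23 and -0.93, and relative to the median of all genes 0.07, 0.17, -0.35 and -1.10, so the position below E14 turned at E11, E12 and E16 and stayed at E18. Below the median of all genes it stood at E16 and E18.

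Of the inhibitors, Cdkn1a and Cdkn2c shared a course as normalized here: low at E11 and E12, and slightly above E14 at E16 and E18. They were the closest pair among the 7 genes, at a distance of 0.46 over the 4 log2 ratios, ahead of Ccnd1 and Rb1 at 0.63. Because these genes moved together, the 250 bases before their starts are shown, from RefSeq on build GRCm38.p6. They are 2 starts of Cdkn1a on the plus strand (chr17:29090729-29090978 and chr17:29093519-29093768) and the start of Cdkn2c with the higher GC content on the minus strand (chr4:109666757-109667006). Capitals mark matches on either strand to a p53-binding decamer (2 in the upstream Cdkn1a window) and to the GC box GGGCGG (2 in the downstream Cdkn1a window and 3 in that of Cdkn2c). The marked matches do not overlap.

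Cdkn1a upstream start: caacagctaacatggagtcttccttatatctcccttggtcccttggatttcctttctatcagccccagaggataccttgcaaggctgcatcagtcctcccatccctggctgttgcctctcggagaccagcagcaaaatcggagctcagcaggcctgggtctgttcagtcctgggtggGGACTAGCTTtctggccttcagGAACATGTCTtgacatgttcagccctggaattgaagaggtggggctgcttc
Cdkn1a downstream start: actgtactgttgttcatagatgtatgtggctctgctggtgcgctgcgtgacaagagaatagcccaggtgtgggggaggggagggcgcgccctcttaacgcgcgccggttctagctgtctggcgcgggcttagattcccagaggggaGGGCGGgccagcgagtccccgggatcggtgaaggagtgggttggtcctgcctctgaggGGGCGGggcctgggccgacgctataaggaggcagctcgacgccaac
Cdkn2c GC-rich start: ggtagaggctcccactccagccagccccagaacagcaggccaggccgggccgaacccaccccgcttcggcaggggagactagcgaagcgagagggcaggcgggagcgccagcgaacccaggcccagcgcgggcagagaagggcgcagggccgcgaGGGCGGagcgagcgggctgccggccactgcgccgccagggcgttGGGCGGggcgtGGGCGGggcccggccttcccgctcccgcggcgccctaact

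The upstream Cdkn1a window held no GC box, and the downstream window and the Cdkn2c window held no p53-binding decamer. Of 32851 mouse promoter windows of the same length, 32.7% held a GC box and 7.13% a p53-binding decamer. The other start of Cdkn2c (chr4:109665373-109665622) had 42.8% GC against 77.2% in the window shown, and none of the 5 motifs searched. Those were the 2 above, CCAAT (33.8% of all windows), the E2F sites TTTCCCGC, TTTCGCGC, TTTGGCGC and TTTGCCGC (1.86%) and the AP-1 site TGANTCA (6.75%), all on both strands. Windows were found for 4 of the 7 genes, with 7 starts in all; both of Ccnd3 and the 1 of Cdkn1b held a GC box, Cdkn1b and 1 start of Ccnd3 held CCAAT, and none held the other motifs. Letters in a window are a description and show no binding.

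Cdkn1a encodes p21, the Cip/Kip inhibitor known as a p53 target and as a marker of the enamel knot. The probe A_51_P363947 (mm7, chromosome 17, 27293819 to 27293878, plus strand, 10 spots) gave -1.89 at E11 and -1.86 at E12, then 0.29 at E16 and 0.35 at E18, with an E14 SD of 0.04 (n = 4 hybridisations). Its spots ranged from -1.99 to -1.69 at E11 and from -1.98 to -1.71 at E12, which overlap, and from 0.24 to 0.35 at E16 and 0.31 to 0.39 at E18, which overlap too. E11 and E12, and again E16 and E18, differed by no more than the range of the E14 values (0.09), and the steps from E12 to E14 and from E14 to E16 were larger. As normalized here, the course of Cdkn1a was thus a step with E14 just below its upper level. E16 exceeded E12 4.43-fold and E18 exceeded E11 4.73-fold. With plain median centring Cdkn1a gave -1.34, -1.07, 1.13 and 0.75 in stage order, and E14 then lay farther below E16 and E18.

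Cdkn2c encodes p18Ink4c, an INK4 inhibitor of the kinases that the D cyclins activate. Its brighter probe A_51_P513719 (mm7, chromosome 4, 109037613 to 109037672, minus strand) gave -1.78 at E11 and -1.42 at E12, then 0.35 at E16 and 0.36 at E18, with an E14 SD of 0.04 (n = 4 hybridisations). The other probe, A_51_P513720 (109037591 to 109037652), gave -1.68, -1.42, 0.33 and 0.28, but the probes overlap on the genome and share sequence, so they are not separate evidence. Cdkn2c was higher at E12 than at E11 by 0.37, more than the range of its E14 values (0.09). For Cdkn1a that difference was 0.03, but 0.13 in the scanner software's ratios and 0.27 with median centring, and whether the genes differ in it was not tested. For Cdkn2c, E16 and E18 did not differ by more than that. E16 exceeded E12 3.40-fold and E18 exceeded E11 4.42-fold. With plain median centring Cdkn2c gave -1.26, -0.64, 1.17 and 0.74 in stage order.

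Both genes rose with embryonic day. The slope of Cdkn1a was 0.37 ± 0.05 per day (limma, Benjamini-Hochberg adjusted p 0.0118) and that of Cdkn2c 0.33 ± 0.04 (adjusted p 0.0120). Both were lower than E14 by 2-fold or more at E11 and E12 and at or above it at E16 and E18, a pattern that 107 of 17414 genes (0.614%) had. Cdkn1a and Cdkn2c were also the members past 2-fold upward between E12 and E16, which 4.8% of genes passed, and between E11 and E16, which 6.01% passed. The step falls between the slides: with the slide as a block the slopes were 0.03 for Cdkn1a and 0.08 for Cdkn2c and neither passed (adjusted p 0.9999, limma). That fit left 0 of 17414 genes past the threshold, and 579 (3.32%) at an unadjusted p under 0.05. Stage and slide cannot be told apart in it. The ratios of E11 and E12 to E14 lie within the first slide, and there stage and dye cannot be told apart.

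Low signals compress these ratios. At E11 the mean signal was 131 for Cdkn1a and 121 for Cdkn2c in Cy5, over a median background of 33.5, and an offset of 50 was added before the logarithm. The scanner software's ratios, which have no such offset, were -2.52 at E11 and -2.39 at E12 for Cdkn1a, and -2.51 and -1.91 for Cdkn2c. Both genes were above background in both channels on all 4 arrays. Without the E11 array neither passed, at an adjusted p of 0.0749 for Cdkn1a and 0.0814 for Cdkn2c (limma, Benjamini-Hochberg). Without E12 Cdkn1a still passed at 0.0499 and Cdkn2c did not, at 0.0543.

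Cdkn1b, which encodes p27, another Cip/Kip inhibitor, gave values that differed between its 3 probes. The brightest, A_51_P146126 (mm7, chromosome 6, 134939519 to 134939578, plus strand), was designed on a cDNA clone and carries the symbol without a RefSeq transcript. It gave 0.42 at E11 and 0.19 at E12, then 0.85 at E16 and 0.56 at E18, with an E14 SD of 0.05 (n = 4 hybridisations), above E14 on every array and highest at E16. The probe on the RefSeq transcript with 10 spots, A_51_P169173 (134935407 to 134935465), gave 0.17, -0.02, 0.06 and 0.08. The last, A_52_P673863 (134937910 to 134937969), was above background at E12 in Cy5 and in no other channel, and gave 0.01, -0.09, 0.08 and 0.08.

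The first probe of Cdkn1b exceeded the second by 0.25 at E11 and 0.22 at E12, then 0.78 at E16 and 0.48 at E18. The spots of the second at E16 ranged from -0.02 to 0.17, short of the 0.85 of the first. In the scanner software's ratios, without the offset, the probes stood at 0.90 and 0.11 at E16 but at 0.52 and 0.55 at E11, so they differed at E16 and not at E11. The second probe was dim, with a mean Cy5 signal between 63.9 and 91.2. No course is therefore given for Cdkn1b as a gene. None of its 3 probes passed the trend test. In the fit with 1 probe per gene the slope was 0.05 ± 0.04 per day (limma, Benjamini-Hochberg adjusted p 0.398), and with the slide as a block it was -0.16.

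Rb1, the gene of the pocket protein that D cyclin kinases phosphorylate, was highest at E18. The probe A_51_P136888 (mm7, chromosome 14, 67877318 to 67877377, minus strand, 10 spots) gave 0.05 at E11 and -0.16 at E12, then 0.55 at E16 and 1.25 at E18, with an E14 SD of 0.02 (n = 4 hybridisations). Its spots ranged from -0.06 to 0.16 at E11, from -0.27 to -0.04 at E12, from 0.49 to 0.61 at E16 and from 1.19 to 1.30 at E18. The stages E16 and E18 stood clear of each other and of all earlier stages, whereas the spots of E11 and E12 overlapped. E11 and E14 differed by no more than the range of the E14 values (0.06). A second probe, A_52_P419873 (67944271 to 67944330), was above background in no channel and gives no level.

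Rb1 rose with embryonic day, by 0.18 ± 0.04 per day (limma, Benjamini-Hochberg adjusted p 0.0414), close to the threshold of 0.05. With the slide as a block the slope was 0.24 and Rb1 did not pass (adjusted p 0.9999, limma), as no gene did. E18 exceeded E11 2.29-fold, and Rb1, Cdkn1a and Cdkn2c were the members past 2-fold upward in that pair, which 5.93% of genes passed. The call did not hold with the scanner software's ratios (adjusted p 0.0511, limma), with plain median centring (0.101), without an intensity trend in the variances (0.0510), or without E11 (0.0749), E12 (0.132) or E18 (0.264).

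Counted over the 7 genes, 3 rose with embryonic day (Cdkn1a, Cdkn2c, Rb1), none fell and 4 did not pass. Over all 17414 genes tested, 6.28% rose and 2.64% fell, 8.91% in all. At E11, 3 members were lower than E14 by 2-fold or more (Ccnd2, Cdkn1a, Cdkn2c), against 4.87% of all genes, and at E12 the same 3, against 2.63%. In the scanner software's ratios, which gave the same counts of members, the shares of all genes were 13.3% at E11 and 8.01% at E12. At E16 Ccnd2 was the 1 such gene, against 1.7%, and at E18 there were 2 (Ccnd2, Ccnd3), against 3.85%. No member was 2-fold higher than E14 at E11 (1.6% of genes), E12 (0.316%) or E16 (2%), and 2 were at E18 (Ccnd1, Rb1), against 3.81%. With 7 genes chosen by name these counts describe the members and are no test of them. Between E12 and E18, Ccnd1, Cdkn1a, Cdkn2c and Rb1 were 2-fold higher or more (5.36% of genes) and Ccnd3 was lower (3.04%). No member moved by 2-fold between E11 and E12, where 0.672% of genes were higher at E12 and 0.304% lower. No member was lower by 2-fold at E16 than at E12 (1.48% of genes) or E11 (1.84%), or at E18 than at E16 (0.878%) or E11 (2.52%), and none was higher than E14 by 2-fold on all 4 arrays (0.0115%). These calls moved with plain median centring: Ccnd3 then gave -1.15 for E18 over E16 and -1.40 for E18 over E11, past 2-fold in both. Between E12 and E18 Ccnd1 then ran from 1.13 to 2.07, short of 2-fold, and Ccnd2 from 0.42 to -0.74, past it.

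**Figure D2:**
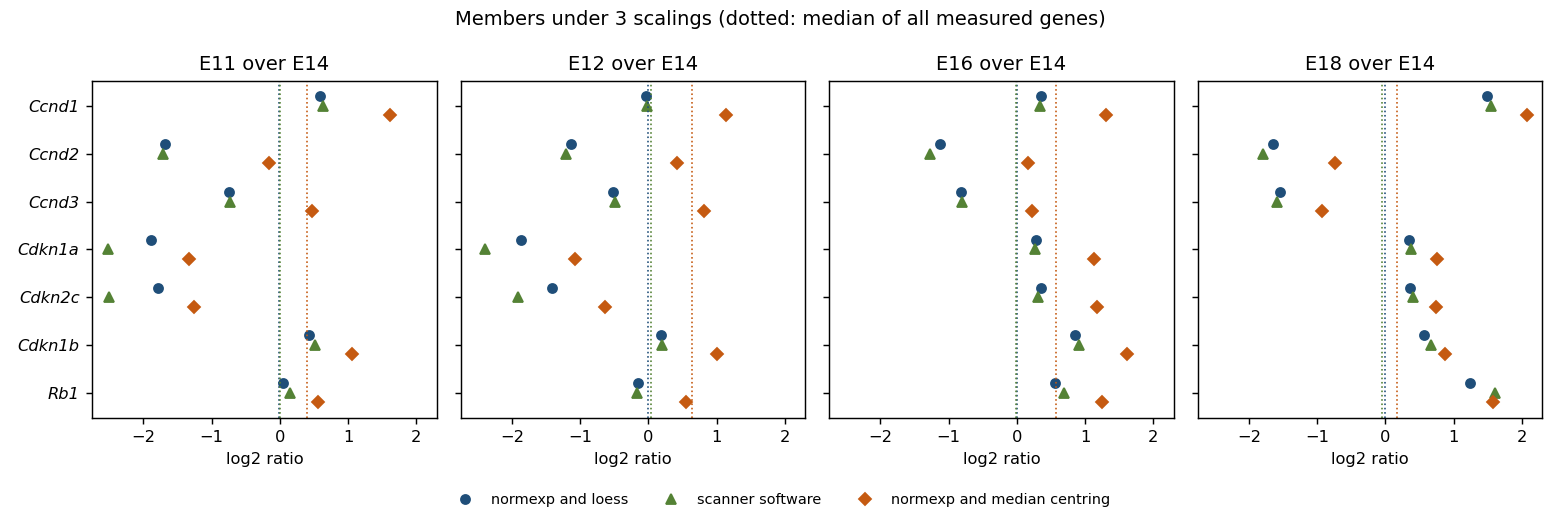
Log2 ratio to E14 (horizontal axis) of the 7 genes on each of the 4 arrays, as normalized here, as written by the scanner software, and with plain centring of each array. Dotted lines mark the median of all measured genes under each scaling. Plain centring moved every member upward, Ccnd2 by 0.92 to 1.55, and left Cdkn1a and Cdkn2c below the median of all genes at E11 and E12.

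Relative to the median of all genes under plain centring, Cdkn1a stood at -1.74, -1.71, 0.56 and 0.58 in stage order, Cdkn2c at -1.66, -1.28, 0.60 and 0.57, and Ccnd1 at 1.22, 0.49, 0.73 and 1.90. Rb1 stood at 0.16, -0.09, 0.67 and 1.40. The rise of the inhibitors from E12 to E16 and the late peak of Ccnd1 and Rb1 were therefore present under each scaling. The level of Ccnd1 at E12 against E14 and the place of E14 within the inhibitors' step were not the same.

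The genes whose course was most like a member's were sought among 13638 genes above background in both channels on all arrays, by the Euclidean distance over the 4 log2 ratios. Nearest to Cdkn1a was Junb, an AP-1 family transcription factor, at a distance of 0.11, with -1.79, -1.87, 0.29 and 0.37 in stage order. Tnfrsf18 (0.29) and BC023892 (0.36) came next. Nearest to Cdkn2c were Csrp1 (0.25), a LIM-domain protein, Plekhh3 (0.31) and Npdc1 (0.32). The nearest to Ccnd1 were Ctla2a (0.27), the retinoid receptor gene Rxrg (0.34) and Exoc6 (0.37).

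For Ccnd2 the closest courses were those of the transcript TC1445366 (0.22), of Bgn (0.29), the gene of the matrix proteoglycan biglycan, and of Tns2 (0.34). Bgn gave -1.83, -1.28, -1.18 and -1.47 in stage order. For Ccnd3 they were Pakap (0.21), Ccdc102a (0.27) and Mfap2 (0.28), the last a microfibril protein gene. Rb1 had the closest neighbour of all members, Sypl, at 0.09, followed by Rnf32 (0.17) and Them4 (0.18). Cdkn1b spanned less than 1 log2 unit and was not searched. These likenesses rest on 4 ratios each and share the E14 channel.

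The other genes of the G1 pathway were described by lists chosen by function. Of the 5 partner kinases and their activator (Cdk2, Cdk4, Cdk6, Cdk7, Ccnh), none passed the trend test. Cdk6, a catalytic partner of the D cyclins, was below E14 on all 4 arrays and lowest at E11 and E18, as Ccnd2 was. It gave -1.39 at E11 and -0.43 at E12, then -0.60 at E16 and -1.56 at E18. At E12 and E16 it stood closer to E14 than Ccnd2, which gave -1.13 and -1.12. Cdk7, the kinase that activates CDKs, was above E14 throughout, with 0.95, 0.32, 0.67 and 0.94. Cdk4, the other D cyclin partner, which was picked after its values were seen, gave 0.31, 0.26, -0.21 and -0.34.

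Of the 5 other CDK inhibitors on the array 4 were measured, and Cdkn2a was not. Cdkn2b, an INK4 inhibitor, rose by 0.25 per day (limma, Benjamini-Hochberg adjusted p 0.021), with -0.77, -0.44, 0.93 and 0.78 in stage order, and the other 3 did not pass. Cdkn1c, also of the Cip/Kip family, picked after its values were seen, was lowest at E18, with -0.08, -0.71, -0.58 and -1.51. The inhibitors thus differed among themselves at E18, from -1.51 for Cdkn1c to 0.78 for Cdkn2b.

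None of the 12 pocket protein and E2F-DP genes passed the trend test. The members of that list farthest from E14 were E2f5, with 1.06 at E11 and 0.20 at E12, then 0.10 at E16 and 0.31 at E18, and E2f6, with 1.04, 0.69, 0.12 and 0.22. Rb1 was thus the 1 pocket protein gene past the threshold, although its difference from Rbl1 and Rbl2 was not tested. Of the 7 E and A cyclins and their regulators 2 fell: Ccne1, the cyclin that follows the D cyclins in late G1, by 0.23 per day (adjusted p 0.015) and Cdc25a, a phosphatase that activates CDK2, by 0.13 (adjusted p 0.044, both limma with Benjamini-Hochberg adjustment). Ccne1 gave 0.68, 0.14, -0.77 and -0.94 in stage order.

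Lists of the phases after G1 had medians above E14 at the early stages. In them, 10 of 18 S phase genes and 8 of 18 mitosis genes were above E14 at both early stages and below it at both late ones. The share of all genes with that course was not counted, so these counts describe the lists only. The 18 S phase genes, many of them E2F targets, had a median of 0.48 at E11 and 0.21 at E12, then -0.38 at E16 and -0.18 at E18, beside a median of all genes near 0, and none passed the trend test. Rfc4, a clamp loader subunit, was the highest of them at E11, with 1.1 at E11 and 0.46 at E12, then -0.02 at E16 and 0.41 at E18. Rrm2, of ribonucleotide reductase, gave 0.88, 0.28, -0.48 and -0.25. With plain median centring the S phase median was 1.64, 1.53, 0.64 and 0.37, above the median of all genes at every stage, so its place below E14 at E16 and E18 turned while the decline from the early stages stayed.

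Of 18 mitosis genes 3 fell, the kinase gene Aurka and Cenpe by 0.16 per day each (adjusted p 0.023 and 0.048) and Cdc20 by 0.15 (adjusted p 0.028, limma with Benjamini-Hochberg adjustment). The other 15 did not pass, and the list's median was 0.53, 0.33, -0.11 and 0.12 in stage order. Aurka gave 0.52, 0.32, -0.41 and -0.56. The medians of these lists were on the opposite side of E14 from Cdkn1a and Cdkn2c at E11 and E12. Ccnd1, at its highest at E18, stood 1.48 above E14 where the S phase median was -0.18.

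**Figure D3:**
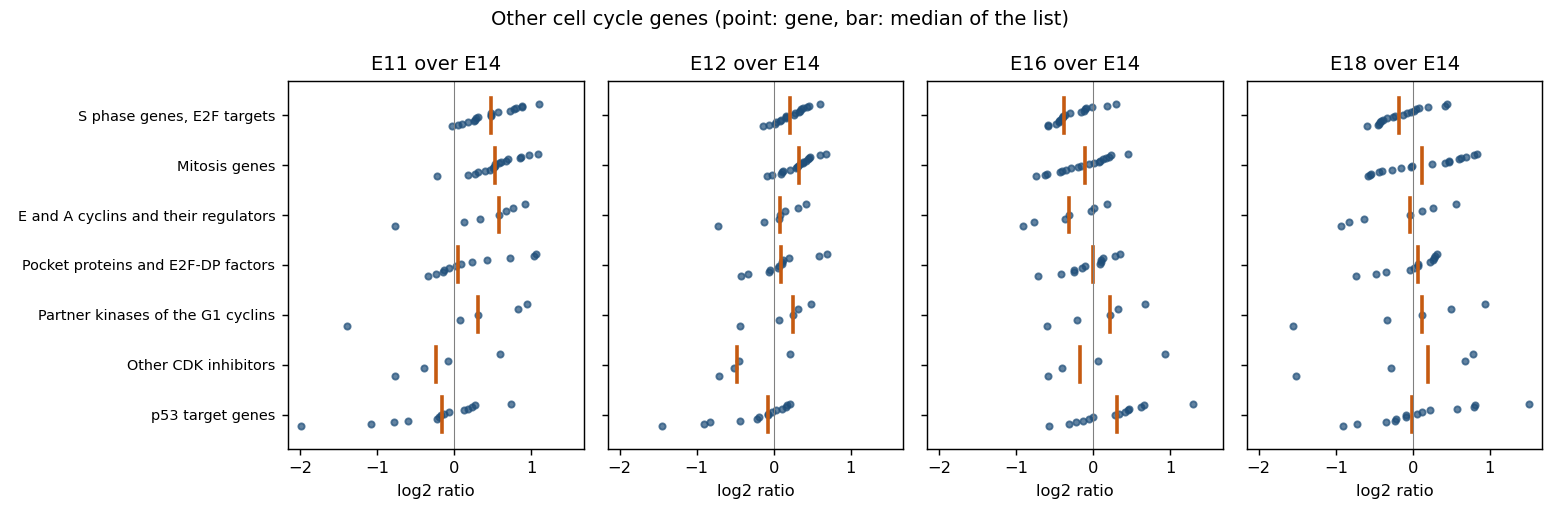
Log2 ratio to E14 (horizontal axis) of the genes of 7 cell cycle and p53 lists on each array. Each point is a gene and each bar is the median of its list. S phase and mitosis genes lie mostly right of 0 at E11 and E12, and their medians lie between -0.38 and 0.12 at E16 and E18.

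Upstream of the D cyclins, 2 of 7 genes rose, against 6.28% of all genes. Myc, a transcription factor that acts on the D cyclin genes, rose by 0.23 per day (adjusted p 0.035), from -1.54 at E11 and -0.60 at E12 to 0.05 at E16 and 0.29 at E18. Ctnnb1, the gene of beta-catenin, rose by 0.18 per day (adjusted p 0.018, both limma with Benjamini-Hochberg adjustment), with 0.38, 0.40, 1.11 and 1.59. Both were highest at E18, as Ccnd1 was, but Myc was lowest at E11 where Ccnd1 stood 0.59 above E14.

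Of 14 p53 target genes, a list without Cdkn1a here, 2 rose, against 6.28% of all genes. They were Btg2, an antiproliferative gene, with -1.07, -0.82, 0.45 and 0.58 (slope 0.25 per day, adjusted p 0.013), and Ccng1, with -0.13, -0.18, 0.62 and 0.79 (slope 0.15, adjusted p 0.039, limma with Benjamini-Hochberg adjustment). The other 12 did not pass, and the list's median was -0.15, -0.07, 0.31 and -0.01. None of the 14 had the pattern of Cdkn1a, 2-fold below E14 at both early stages and at or above it later. Of all genes 0.614% had it, so its absence among 14 genes is no result about the list.

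Enamel knot genes, signals and transcription factors of the knot and its surrounding epithelium, were the pathway list with the largest share of genes that rose. Of 18 measured (Fgf4 has no probe here) 9 rose and none fell, against 6.28% and 2.64% of all genes. The pattern of Cdkn1a and Cdkn2c, which 0.614% of all genes had, was present in 3 of the 18. The list was mixed: 5 of the 18 were below E14 on all 4 arrays, which 21.9% of all genes were. Among these were Fgf20 and Dkk4, picked after their values were seen. Fgf20 gave -0.95, -1.06, -0.95 and -0.90 in stage order, and Dkk4 gave -0.06, -0.14, -0.02 and -0.03. The median of the list was -0.69, -0.65, 0.28 and 0.32. Sp6, a dental epithelial transcription factor, had the steepest slope, 0.90 per day (limma, Benjamini-Hochberg adjusted p 0.005), with -3.02, -2.86, 1.64 and 2.80. Shh gave -0.91, -0.77, 2.27 and 4.03, and Wnt10a gave -3.53, -2.96, 0.57 and 0.47. Over all 9 pathway lists 14 of 103 measured genes rose and 5 fell, and with plain median centring the split was 7 and 22.

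**Figure D4:**
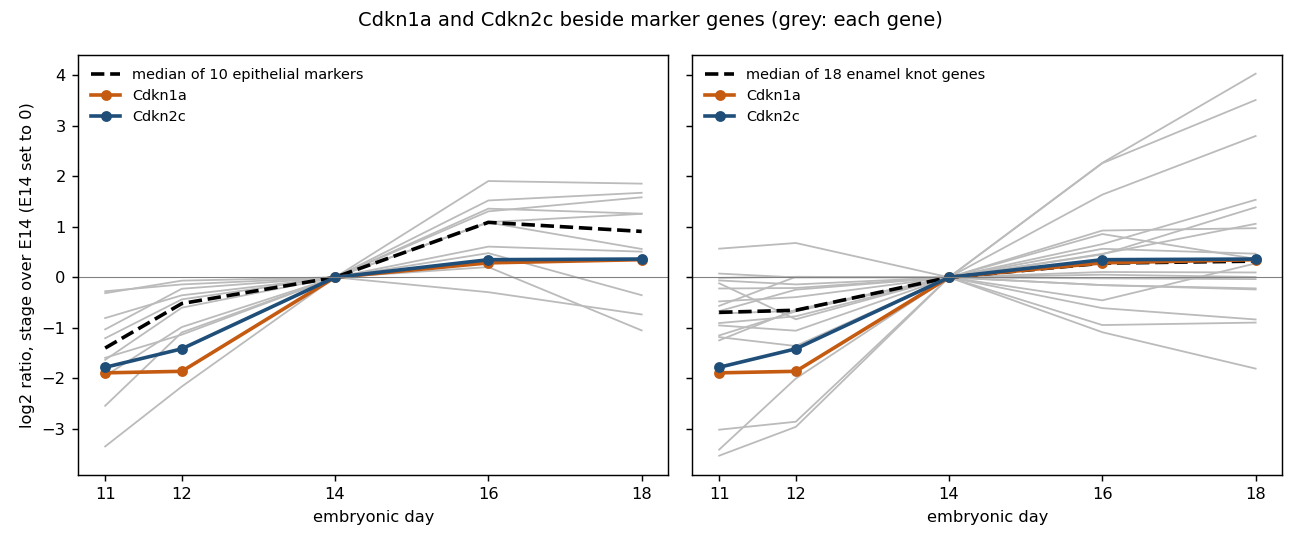
Log2 ratio to E14 (vertical axis, E14 set to 0) against embryonic day (horizontal axis) for Cdkn1a and Cdkn2c, with 10 epithelial markers (left) and 18 enamel knot genes (right) in grey and their medians dashed. The epithelial median runs from -1.40 at E11 to 1.09 at E16, and both inhibitors run below it at each of the 4 stages.

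In whole germs a change in the share of a cell type and a change of RNA per cell cannot be told apart. The summed level of epithelial markers was also low early and above E14 late. It was -2.52 at E11 and -1.46 at E12, then 0.88 at E16 and 0.39 at E18 (log2 over E14). All 10 were measured, 6 rose, against 6.28% of all genes, and 4 did not pass. Krt5 gave -3.35, -2.16, 1.09 and 0.56, and Krt14 gave -2.54, -1.09, 0.48 and -0.35. Krt18 and Krt8, picked after their values were seen, took other courses. Krt18 was below E14 on all 4 arrays (-1.59, -1.14, -0.29 and -0.74), and Krt8 was lowest at E18 (-0.28, -0.14, 0.20 and -1.05). Of the 10 epithelial markers 1 had the pattern of Cdkn1a and Cdkn2c, which 0.614% of all genes had. Both inhibitors stood lower than the epithelial median at each stage (-1.40, -0.52, 1.09 and 0.91). Markers of keratinizing epithelium, of which 9 of 10 were measured and 2 rose, had a summed level of -1.34, -1.11, 2.17 and 0.44, lower at E18 than at E16. The part of these cells in the rise of the inhibitors was not tested.

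The summed level of mesenchymal markers was below E14 on all 4 arrays, as Ccnd2 was. It was -1.34 at E11 and -0.89 at E12, then -0.59 at E16 and -0.96 at E18. Of the 10 markers, 6 were below E14 on all 4 arrays, which 21.9% of all genes were. In the trend test 1 of the 10 rose, 4 fell and 5 did not pass. The sums were not computed with median centring. Prrx1 gave 0.01, -0.02, -2.72 and -3.92, and Col1a1 gave -3.51, -2.28, -0.41 and -1.74, so single markers took other courses. Endothelial markers were likewise below E14 on all arrays in 6 of 8 genes, with a summed level of -0.17, -0.39, -0.60 and -0.54. The part of mesenchyme or vessels in the course of Ccnd2 was not tested.

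Of other cell types, red cell markers went the opposite way to Cdkn1a, with a summed level of 2.13, 1.03, -3.47 and -3.53 and all 10 measured. The summed level of odontoblast and bone markers ran from -1.30 and -0.89 to 0.39 and 0.56 (8 of 8 measured). Of these 3 rose and 5 did not pass, and 1 was below E14 on all 4 arrays. Macrophage markers summed to -0.38, -0.59, 0.25 and 0.30 (9 of 9), but 1 rose and 8 did not pass. The macrophage median was -0.30, -0.55, 0.13 and -0.06. Ameloblast markers, with 4 of 7 measured and Enam, Mmp20 and Amtn not above background, had a summed level of -0.33, -0.19, 0.23 and 1.39. Of the 4 only Odam rose, to 2.45 at E18, and the median of the list at E18 was 0.01. Cartilage markers were at 1.20, 0.74, 0.38 and 0.54 (5 of 7), but their median was 1.16, 0.47, -0.04 and 0.12. In the trend test 1 cartilage marker fell and 4 did not pass. Neuron and glia markers were at 0.03, -0.22, 0.17 and 0.41 (8 of 9). Skeletal muscle markers stayed between -0.30 and 0.02 (7 of 11), and Myod1, Myf5, Des and Ckm were not above background. The part of these cells in the members' courses was not tested.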

How the data were processed

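Per the labels' protocols, total RNA was extracted with Trizol and labelled with Cy3 (E14) or Cy5 (the other stage). The scanner software was Agilent Feature Extraction 10.5.1.1, per the file headers. Each deposited scanner file gives a mean signal and a median background per spot and dye, as intensity on a linear scale. Their deposited LogRatio column, and the deposited series value table, which matched it in 100% of 44996 features per array, hold log10 ratios of Cy5 over Cy3, per the file headers.

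Log2 ratios were obtained from these in limma 3.58.1 (R 4.3.3) with normexp background correction (offset 50) and loess within arrays, control and outlier spots at weight 0. Spots of a probe were averaged, and the brightest measured probe stood for a gene. For the E14 levels, with their SD and range, the mean signals of the arrays were first brought to the same distribution (Aquantile in limma). The log2 ratios were not changed by that step. Probes above background made up 52.5% to 59.0% in Cy5 and 54.3% to 57.0% in Cy3, and no spot was saturated. The number of arrays limits the precision. Probes were named by accession (22951), symbol (6659) or synonym (3109) through a RefSeq table of GRCm38.p6, and 8455 kept the array's name. Probe coordinates are those of the files, build mm7. No gene annotation of that build was used here, so exons are not given.

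The trend test regressed the log2 ratios of the 4 arrays on embryonic day with lmFit and eBayes (intensity trend, 2 residual degrees of freedom), with Benjamini-Hochberg adjustment over 17414 genes and a threshold of 0.05. Its p-values measure the spread of single pools around a line. The fit was tested on simulated data. Other settings were no background correction, offset 16, median centring, the scanner ratios, the value table, the mean of probes, no filter on dim probes, the slide as a block, variances without a trend, and leaving out each array.

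The members and gene lists were chosen with earlier results of these data known. Named besides the members were up to 3 genes with the steepest slopes past the test per pathway list, or else the 2 farthest from E14, up to 2 markers per list, and the 3 nearest genes per member that spanned at least 1 log2 unit. Genes outside this rule are marked.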

Additional observations from a re-analysis of the deposited data

Results flagged for a closer look

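The E14 channel of Cdkn2c held 1 value apart from the others. In the hybridisation with E12 its normalized log2 level was 8.51, the lowest of 4, and the highest was 8.60. The gap to the nearest value made up 0.868 of the range of 0.09, above Dixon's critical value for 4 values. The same check was run on each of the 7 genes. The ratio of Cdkn2c at E12, -1.42, was computed against this E14 value.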

How the results depend on the processing

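No paired analysis was possible because each stage was 1 pool. With median centring, members 2-fold or more above E14 numbered 2 at E11, 2 at E12 and 5 at E16 (0 at each in the report), and those below numbered 1 at E12, 0 at E16 and 0 at E18. Ccnd2 turned to 0.42 at E12 and 0.16 at E16, and pathway genes that rose and fell numbered 7 and 22. That scaling moved the median of all genes to between 0.17 and 0.64, and the share of genes 2-fold higher to between 11.6% and 32.5%. In the scanner ratios the shares were 4.91% to 11.9% higher and 8.01% to 14% lower (0.316% to 3.81% and 1.7% to 4.87% in the report). With the slide as a block no member (0) and no pathway gene (0 rose, 0 fell) passed, and the slope of Cdkn1b turned to -0.16. Leaving out each array in turn gave 0 to 4 members that rose (0 without E11, 1 without E12, 4 without E16), 0 to 1 that fell (Ccnd3, without E16), 3 to 17 pathway genes that rose (3 without E11, 7 without E12) and 0 to 12 that fell (0 without E11 or E12, 12 without E18). The slope of Ccnd2 ran from -0.0741 without E11 to 0.0817 without E18, turning also without E12 (0.026), and that of Ccnd1 from -0.0046 without E18 to 0.231 without E11. Over all genes 1093 rose and 459 fell, against 504 and 736 with median centring, 148 and 65 without E11, 310 and 97 without E12, and 1626 and 753 without E16. The cause was not tested. With no background correction, offset 16, the scanner ratios, the mean of probes and no filter, the counts of members 2-fold from E14 and the counts of members and pathway genes past the trend test stayed within 1.5 times those reported. Weak signal limits Cdkn1a and Cdkn2c at E11 and E12. Over the settings their log2 ratios at these stages ran from -2.52 to -1.07 and from -2.51 to -0.64. The ends nearest 0 came from median centring at E12, so this range also holds the change of scaling and is no measure of weak signal alone.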
